A study of Mus musculus with 27 samples.

Results

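The genes described are 9 genes of megakaryocytes and platelets: Pf4, Ppbp, Vwf, Itga2b, Gp5, Gp9, Gp6, Fli1 and Nfe2. They were taken by symbol from an expression table of 24418 entries, and all 9 had a row. The table comes from bulk RNA sequencing of purified blood stem and progenitor cells (HSPCs) from C57BL/6 mice, with 9 groups of 3 libraries, 27 in all. Before birth there were 3 groups, labelled E12.5 PL, E12.5 FL and E16.5 FL. A group labelled Perinatal BM and 5 postnatal groups followed, 1w, 3w, 4w, 6w and 8w BM, named by age in weeks. FL and BM are read as fetal liver and bone marrow, as is usual in the field, while PL is kept as labelled because it is not spelled out. No group carries a transgene, a deletion or a treatment according to the labels. How the cells were sorted, whether mice were pooled, their sex and the exact perinatal day were stated in none of the sources used here.

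Megakaryocytes are the large marrow cells that shed platelets. Their genes encode the adhesion receptors of the platelet surface, the proteins packed into platelet granules, and the transcription factors that switch these genes on. Some of these genes, Itga2b, Vwf and Pf4 among them, are also transcribed in blood stem and progenitor cells themselves, and a part of the stem cells of adult marrow is known to carry a platelet-biased programme.

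Values are FPKM, a fragment count scaled by transcript length and by the size of the library, as the authors deposited them. Counts were not given, so the depth of a library is unknown. Relative depth, taken from the spacing of low values, ran from 0.687 to 1.62 with the median library at 1, and 14241 to 16964 genes per library had a value above 0. Folds are differences of log2(FPKM + 1), written as log2 changes, and they understate the change of genes with a low FPKM. Comparisons were tested with limma in 1 fit over all 27 libraries and the 13350 genes that reached an FPKM of 1 in 3 or more libraries, and a gene was called at a Benjamini-Hochberg adjusted p under 0.05 over all 13350 genes. Of the 9 genes, 8 passed that filter, and Gp6 did not. No label says that the 3 libraries of a group came from separate animals, so the p-values reflect no more than how far these libraries spread, which may be technical.

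The groups were checked against markers of HSPCs and of other cell types. The E12.5 PL libraries stood apart. Their summed FPKM over 12 HSPC markers was 382 to 413, against 921 to 1349 in the other 24 libraries. Over 20 endothelial markers it was 1328 to 1715 against at most 379 elsewhere, with all 20 at a mean FPKM of at least 1 in E12.5 PL and 9 to 14 of them in each other group. Over 20 trophoblast markers it was 3868 to 4538 against at most 113, with Synb alone at 0 in E12.5 PL and Hand1, Prl3d1, Prl3b1, Synb and Psg21 at 0 in all other groups. The Perinatal BM libraries carried 1709 to 4321 over 14 mast cell markers, all 14 at a mean FPKM of at least 1, against at most 282 elsewhere. Kit, which is in the HSPC list too, made up 53.0 to 183 FPKM of this sum over the 27 libraries. The 8w BM libraries carried 120.5 to 191 over 16 macrophage markers, against at most 72.4 elsewhere, and none of the 16 was at 0 throughout the group. The larger moves of these sums are given again beside results.

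The DNA before the start sites is shown first, because most of these genes are textbook targets of GATA and ETS family factors, Fli1 being one of the latter. RefSeq sequences of the build GRCm38.p6 were found for 6 of the 9 genes, and none for Vwf, Fli1 and Nfe2. The 250 bases before the start are printed 5' to 3' on the strand of the gene. Capitals mark GATA letters or ETS letters on either strand, and no 2 of the marked matches overlap. The GATA letters were AGATAA and 3 variants of it, namely the variant AGATAG, the variant TGATAA and the variant TGATAG. The ETS letters were AGGAAG or the variant CGGAAG. Pf4 (chr5:90772185-90772434, plus strand) and Ppbp (chr5:90768268-90768517, plus strand) encode neighbouring chemokines. Itga2b (chr11:102469884-102470133, minus strand), Gp5 (chr16:30310782-30311031, minus strand) and Gp9 (chr6:87777820-87778069, plus strand) encode surface receptors. Part of the Itga2b window lies in the first exon of a non-coding transcript of that gene in GENCODE M21.
Pf4: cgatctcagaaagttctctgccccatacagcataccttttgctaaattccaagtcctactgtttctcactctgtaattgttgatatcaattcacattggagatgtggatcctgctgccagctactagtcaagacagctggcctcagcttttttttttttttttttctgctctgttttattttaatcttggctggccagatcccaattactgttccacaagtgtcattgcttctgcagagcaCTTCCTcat
Ppbp: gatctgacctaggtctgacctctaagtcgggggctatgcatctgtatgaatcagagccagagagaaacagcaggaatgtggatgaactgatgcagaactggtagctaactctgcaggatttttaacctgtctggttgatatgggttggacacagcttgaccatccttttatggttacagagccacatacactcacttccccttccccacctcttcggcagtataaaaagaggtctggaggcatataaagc
Itga2b: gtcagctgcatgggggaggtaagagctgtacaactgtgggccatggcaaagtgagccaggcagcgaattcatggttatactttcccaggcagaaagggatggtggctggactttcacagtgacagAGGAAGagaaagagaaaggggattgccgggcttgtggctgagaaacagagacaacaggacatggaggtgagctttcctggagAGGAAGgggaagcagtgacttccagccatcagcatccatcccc
Gp5: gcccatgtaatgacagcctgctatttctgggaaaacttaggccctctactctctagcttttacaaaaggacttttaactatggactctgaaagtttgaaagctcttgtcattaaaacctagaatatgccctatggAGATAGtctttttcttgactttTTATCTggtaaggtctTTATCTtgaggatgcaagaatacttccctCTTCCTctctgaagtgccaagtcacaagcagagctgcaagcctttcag
Gp9: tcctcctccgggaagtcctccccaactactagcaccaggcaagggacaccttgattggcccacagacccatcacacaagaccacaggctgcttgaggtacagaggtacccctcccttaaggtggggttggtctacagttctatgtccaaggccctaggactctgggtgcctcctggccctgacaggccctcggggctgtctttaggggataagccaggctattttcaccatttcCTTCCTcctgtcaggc

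ETS letters were found in 4 of these 5 windows. Pf4 and Gp9 held 1 match each, Itga2b held 2, and Gp5 held 1 together with 3 GATA matches. Ppbp held neither, and Gp6, not printed, held 1 GATA match and no ETS match. The map of matches before the start sites shows that Pf4, Itga2b, Gp5 and Gp9 each have an ETS match within the last 50 bases. Of all 32851 RefSeq windows of this length, 39.2% held ETS letters, 26.5% GATA letters and 9.2% both, and 11.8% held ETS letters in the last 50 bases, a window chosen after the matches were seen. The AP-1/NF-E2 core TGAGTCA, which the Nfe2 protein binds with its partners, was in none of the 6 windows and in 4.5% of all windows. A match describes letters and does not show binding.

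**Figure D1:**
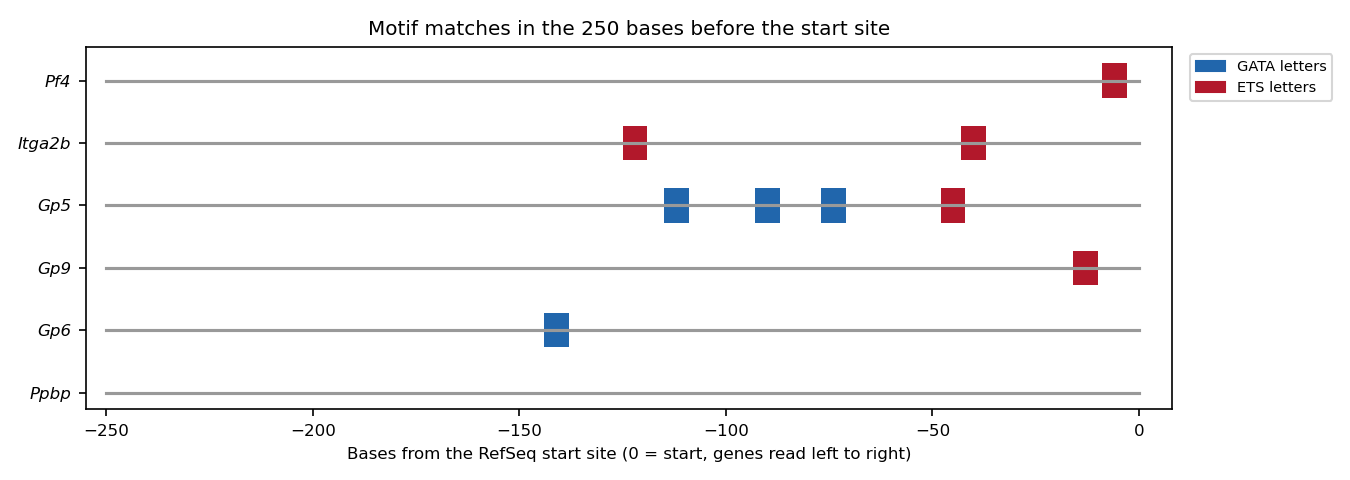
Positions of GATA letters (blue) and ETS letters (red) in the 250 bases before the RefSeq start site of 6 genes, in bases from the start. The ETS match nearest the start lies within 50 bases in Pf4, Itga2b, Gp5 and Gp9, and Ppbp has no match.

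Over the whole course from E16.5 FL to 8w BM, 6 of the 8 tested genes rose and 1 fell. Pf4, Itga2b, Gp5, Vwf, Nfe2 and Fli1 rose, Gp9 fell, and Ppbp did not pass the test, though a fit of only the 6 libraries compared called all 8 genes. That is 7 of 8 genes called, where 40.2% of all genes tested were called (20.5% higher and 19.7% lower in 8w BM). The median log2 change of the 8 was 0.94, against 0.00 over all genes. In bulk RNA a lower value can mean fewer cells that express a gene or less RNA per cell, which cannot be told apart. Between the same groups the summed FPKM of the macrophage markers went from 50.9 to 56.7 in E16.5 FL to 120.5 to 191 in 8w BM, with 11 of 12 tested markers risen. The sum of 21 erythroid markers went from 291 to 327 up to 351 to 541, with 4 of 17 tested markers risen and 1 fallen. Within it, Car1 alone went from a mean of 2.16 FPKM to 145. The part of these cells in the results was not tested. From Perinatal BM to 8w BM the same 6 genes rose and Gp9 fell, 7 of 8 called against 37.8% of all genes (19.2% higher and 18.6% lower), with a median of 0.97 against 0.00. The mast cell sum was 169 to 195 in 8w BM against 1709 to 4321 in Perinatal BM, and the macrophage sum 120.5 to 191 against 44.1 to 56.1, with Timd4, Cd5l, Vsig4 and Marco at 0 in Perinatal BM. The erythroid sum was 351 to 541 against 210 to 231, with 7 of 17 tested markers risen, none fallen, and a mean Car1 of 145 against 15.5 FPKM. Their part was not tested. Both comparisons use the 8w BM libraries.

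**Figure D2:**
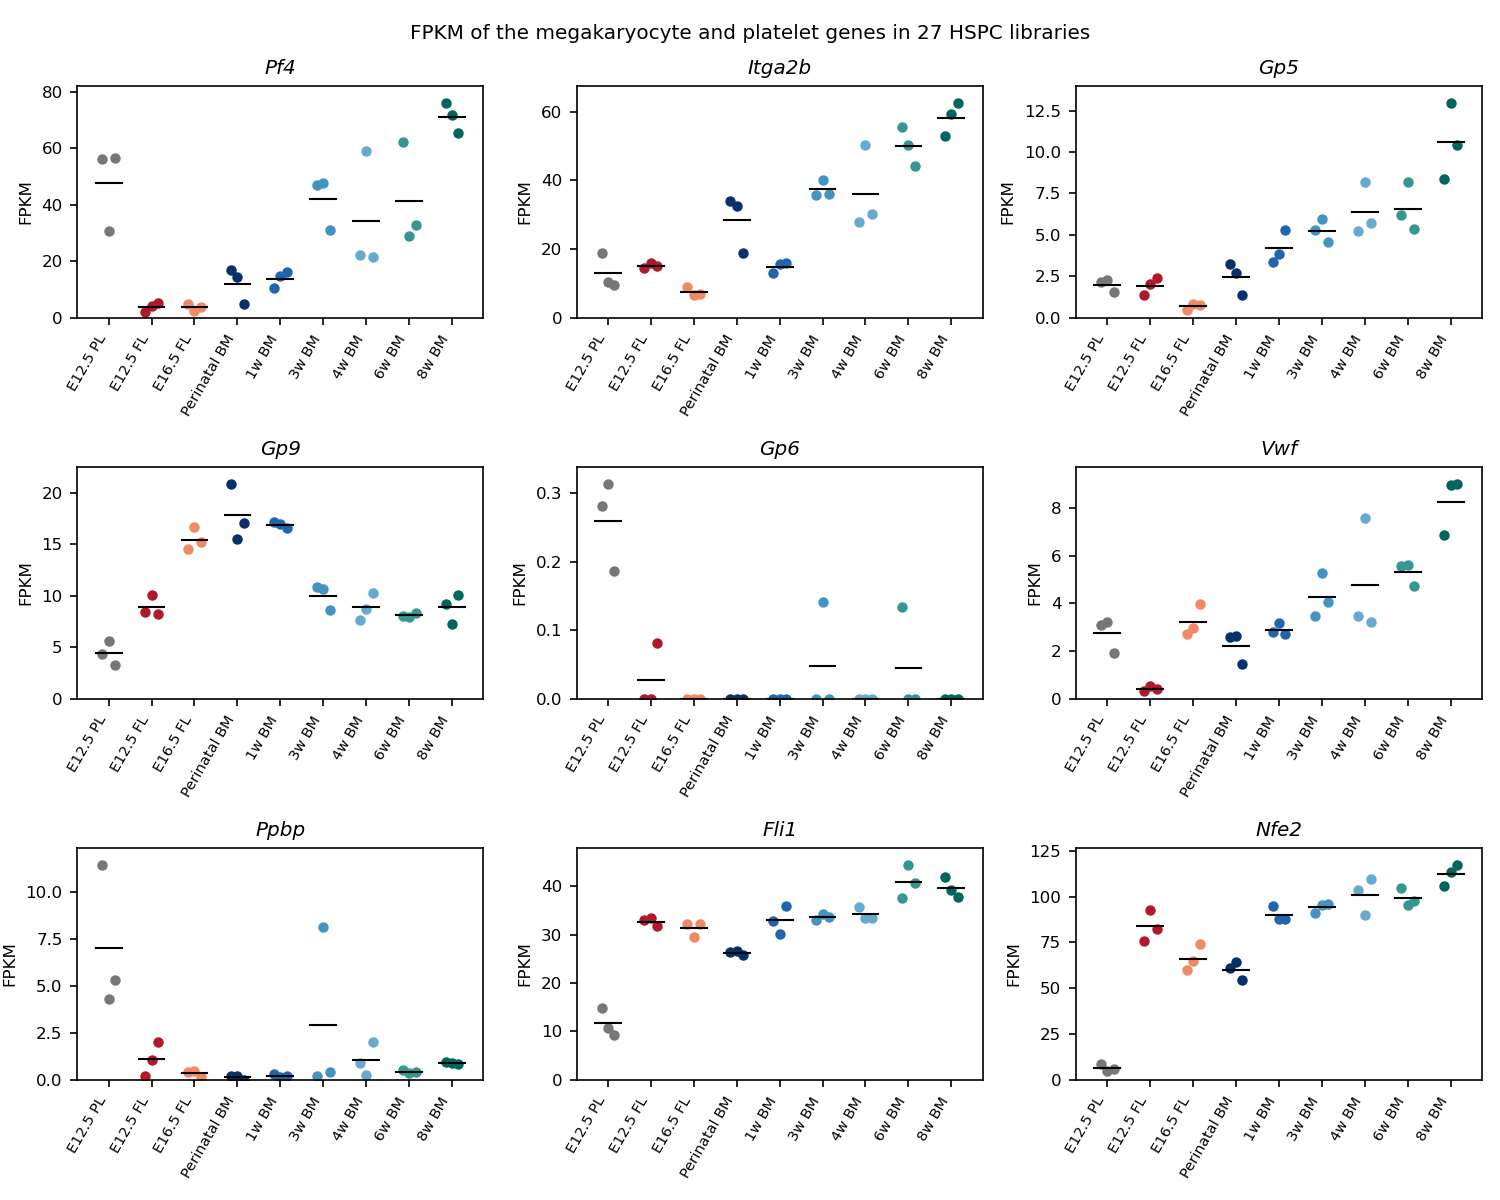
FPKM of the 9 genes in each of the 27 libraries (points, 3 per group, linear axes from 0) with the group mean (line). Pf4, Itga2b, Gp5 and Vwf have their highest group mean in 8w BM, Gp9 in Perinatal BM, and Ppbp and Gp6 in E12.5 PL.

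Among the granule genes Pf4, Vwf and Ppbp, Pf4 had the largest log2 change from E16.5 FL to 8w BM. Pf4 encodes platelet factor 4, a chemokine of platelet alpha granules, and lies at chr5:90772435-90773383 on the plus strand (GRCm38, GENCODE M21). Its FPKM was 2.20, 4.09 and 5.21 in the 3 E12.5 FL libraries and 4.98, 2.45 and 3.93 in E16.5 FL. It was 16.8, 14.4 and 4.90 in Perinatal BM and 10.5, 14.9 and 16.3 in 1w BM. All 6 fetal liver libraries lay low, and Perinatal BM replicate 3 lay inside their range. In 3w BM Pf4 was at 46.9, 47.9 and 30.9, and in 4w BM at 22.1, 59.2 and 21.4. In 6w BM it was at 62.4, 28.9 and 32.9, and in 8w BM at 75.9, 71.7 and 65.5. All 12 libraries from 3w BM on lay above the 12 younger fetal liver and marrow libraries, and the 3w, 4w and 6w BM groups overlapped one another.

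Pf4 rose from E16.5 FL to Perinatal BM by a log2 change of 1.33 (SE 0.40, limma adjusted p = 0.0148) and from 1w to 3w BM by 1.52 (SE 0.40, adjusted p = 0.0173). The first of these calls was lost without Perinatal BM replicate 1 or 2 or E16.5 FL replicate 2 (adjusted p from 0.0701 to 0.0948) and with a fit of only the 6 libraries compared (0.112), and over all alternatives it ran from 0.00122 to 0.112. The second was lost without 1w BM replicate 1, 3w BM replicate 1 or 3w BM replicate 2 (0.0647 to 0.0835), over alternatives that ran from 0.0131 to 0.0835. Beside the first rise the mast cell sum went from 136 to 165 up to 1709 to 4321, and beside the second the macrophage sum went from 32.6 to 48.9 up to 60.8 to 72.4, and their part was not tested. From E16.5 FL to 8w BM Pf4 rose by 3.95 (SE 0.40, adjusted p = 5.4e-08), which was the largest change among the 8 genes, and from Perinatal BM to 8w BM by 2.61 (SE 0.40, adjusted p = 2.25e-05). E12.5 PL, with 56.1, 30.7 and 56.4 FPKM, was second in the order of group means. It overlapped the 3w BM group below it, while 8w BM lay above all of its libraries.

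Ppbp encodes pro-platelet basic protein, another alpha granule chemokine. It lies at chr5:90768518-90770063, and 2371 bases separate its end from the start of Pf4 on the same strand. Over the 24 fetal liver and marrow libraries its level correlated with that of Pf4 at Pearson r = 0.23, a description over libraries in which Ppbp has few reads. At the median depth 1 read of Ppbp was worth 0.165 FPKM, and all 19 low values were whole numbers of reads within 0.15 read. By these steps 15 libraries held 1 to 3 reads, 1 held none, and 11 held more. E12.5 PL held about 91, 30 and 41 reads (11.4, 4.28 and 5.30 FPKM), E12.5 FL 2, 10 and 18, and 8w BM 6, 5 and 6. 3w BM replicate 2 held about 43 reads (8.09 FPKM), while the other 3w BM libraries held 1 and 3. Intervals on such counts would cover counting error only.

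Ppbp fell from E12.5 PL to E12.5 FL by a log2 change of 1.92 (SE 0.49, limma adjusted p = 0.00124), and the libraries of the 2 groups did not overlap. It passed no other test, and among the 8 fetal liver and marrow groups the moderated F test gave an adjusted p of 0.318. From Perinatal BM to 8w BM its log2 change was 0.74 (95% interval -0.28 to 1.75). With a pseudocount of 0.1 that comparison was called (adjusted p = 0.0458), as it was in a fit of only the 6 libraries compared (0.00519), and over all alternatives the adjusted p reached 0.399. From E16.5 FL to 8w BM its log2 change was 0.48 (95% interval -0.54 to 1.49). It was called there in a fit of only the 6 libraries compared (adjusted p = 0.0162, over alternatives from 0.0162 to 0.663). In the 11 libraries with more than 3 Ppbp reads, Pf4 stood at 4.92 to 10.7 times the FPKM of Ppbp in E12.5 PL, at 3.91 and 2.58 times in the E12.5 FL libraries, and at 78.5 to 80.9 times in 8w BM. In 3w BM replicate 2 the ratio was 5.92, and in the 4w BM libraries 24.4 and 10.7.

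**Figure D3:**
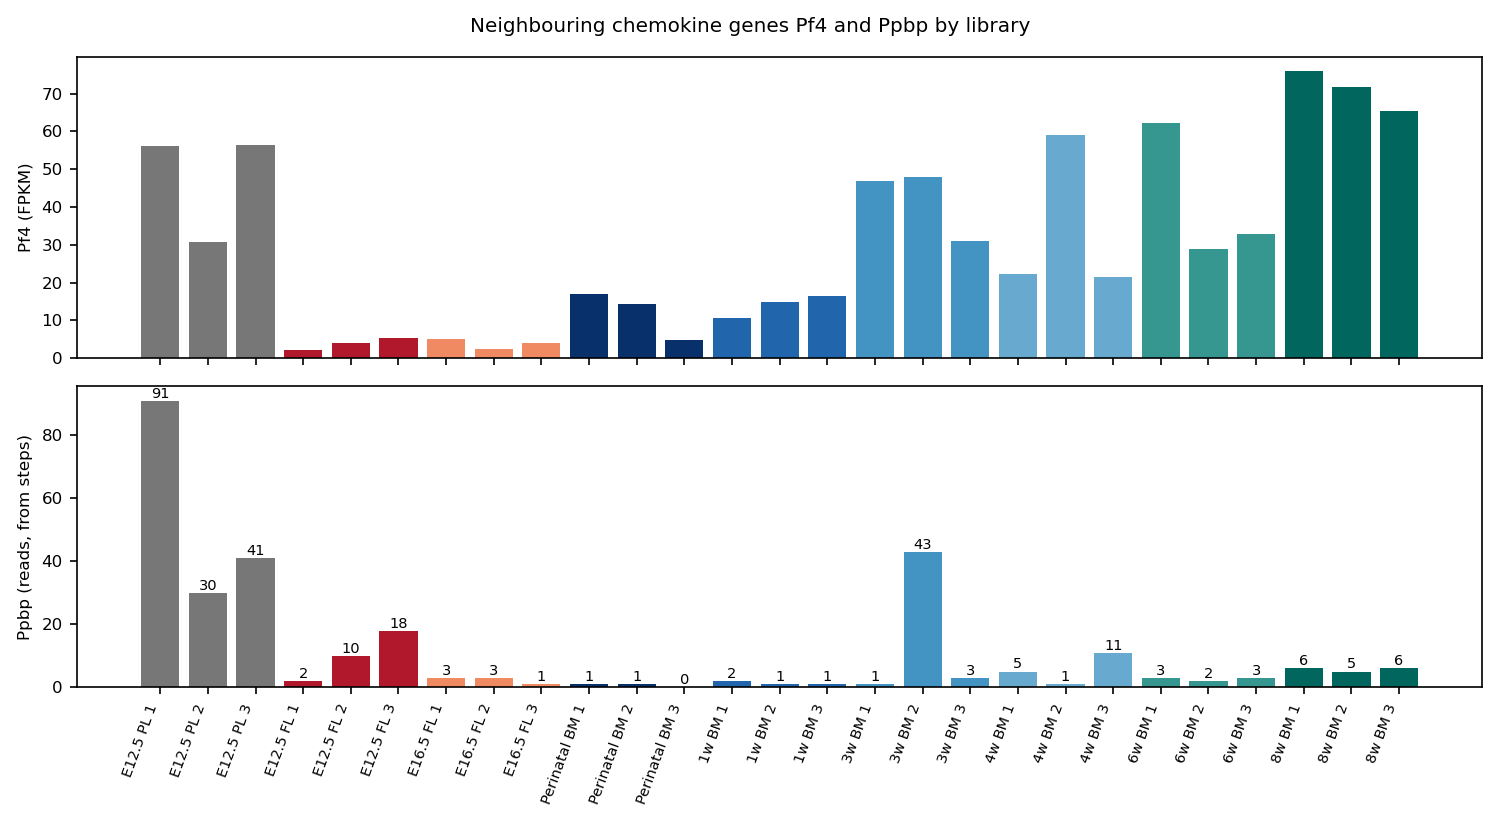
FPKM of Pf4 (upper bars) and number of Ppbp reads computed from the steps between low values (lower bars, number above each bar) in the 27 libraries. Pf4 is at 65.5 to 75.9 FPKM in 8w BM where Ppbp has 5 or 6 reads, and 3w BM replicate 2 stands apart with 43 Ppbp reads.

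Vwf encodes von Willebrand factor, the adhesive protein that tethers platelets to a damaged vessel wall and that endothelial cells also make (chr6:125546774-125686679, plus strand). Its FPKM was 0.35, 0.55 and 0.40 in E12.5 FL, and 2.74, 2.99 and 3.97 in E16.5 FL. The groups did not overlap, and Vwf rose by a log2 change of 1.55 (SE 0.21, limma adjusted p = 9.99e-06). Vwf was thus already at a mean of 3.23 FPKM (SD 0.65, n = 3) in E16.5 FL, where Pf4 had a mean of 3.78, Itga2b of 7.53 and Gp5 of 0.71. Between those groups the endothelial sum went from 348 to 379 in E12.5 FL to 321 to 361 in E16.5 FL. Egfl7 alone had a mean of 192 FPKM in E12.5 FL and 158 in E16.5 FL, and other markers moved both ways. Mean Robo4 went from 5.36 to 14.2 FPKM and mean Emcn from 14.5 to 20.1. Mean Sox18 went from 8.73 to 3.08 FPKM and mean Plvap from 7.19 to 3.66. The macrophage sum went from 23.8 to 28.0 up to 50.9 to 56.7, with 7 of 12 tested markers risen, and the erythroid sum from 157 to 226 up to 291 to 327, with 11 of 17 risen and 1 fallen. The part of these cells was not tested.

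In marrow Vwf was at 2.61, 2.63 and 1.45 FPKM in Perinatal BM and at 2.80, 3.19 and 2.73 in 1w BM. It was at 3.47, 5.28 and 4.06 in 3w BM and at 3.48, 7.58 and 3.23 in 4w BM. The 1w BM libraries lay above Perinatal BM and below 3w BM, the 3w and 4w BM groups overlapped, and no step between them passed the test. In 6w BM it was at 5.59, 5.62 and 4.75, and in 8w BM at 6.86, 8.95 and 9.003, with no overlap between the 2 groups. From Perinatal BM to 8w BM Vwf rose by 1.53 (SE 0.21, adjusted p = 7.42e-06), and from E16.5 FL to 8w BM by 1.13 (SE 0.21, adjusted p = 0.000198). E12.5 PL, at 3.11, 3.22 and 1.93 FPKM, lay above E12.5 FL by a log2 change of 1.37 (SE 0.21, adjusted p = 4.35e-06), between groups whose endothelial sums were 1328 to 1715 and 348 to 379, and the part of those cells was not tested.

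Among the receptors, Itga2b moved both ways. It encodes integrin alpha IIb (CD41), which pairs with integrin beta 3 in the fibrinogen receptor and is also a marker of early blood progenitors of the embryo (chr11:102453297-102470122, minus strand). Its FPKM was 14.5, 16.1 and 14.98 in E12.5 FL and 8.84, 6.79 and 6.96 in E16.5 FL. It was 34.1, 32.6 and 18.9 in Perinatal BM and 12.98, 15.7 and 16.0 in 1w BM. No 2 successive groups of these 4 overlapped. Itga2b fell by 0.93 on the log2 scale between the fetal liver stages (SE 0.22, limma adjusted p = 0.00222), rose by 1.76 to Perinatal BM (SE 0.22, adjusted p = 3.57e-06) and fell by 0.85 to 1w BM (SE 0.22, adjusted p = 0.0092). That last call was lost without Perinatal BM replicate 1 (adjusted p = 0.0554) and in a fit of only the 6 libraries compared (0.0941), and over all alternatives its adjusted p ran from 0.00123 to 0.0941. The mast cell sum moved the same way, from 136 to 165 in E16.5 FL to 1709 to 4321 in Perinatal BM and 234 to 282 in 1w BM, and its part was not tested. Within Perinatal BM, replicate 3 had the highest mast cell sum and the lowest Itga2b.

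From 1w to 3w BM Itga2b rose by 1.28 (SE 0.22, limma adjusted p = 0.000568), to 35.9, 40.2 and 36.2 FPKM, beside the same move of the macrophage sum, whose part was not tested. It was at 27.8, 50.4 and 30.3 in 4w BM, 55.6, 50.4 and 44.2 in 6w BM and 52.9, 59.5 and 62.5 in 8w BM. The group means of 58.3 in 8w BM and 50.1 in 6w BM were the highest, and these 2 groups overlapped. The rise from E16.5 FL to 8w BM was 2.80 (SE 0.22, adjusted p = 1.06e-09). E12.5 PL (18.8, 10.6 and 9.58) and E12.5 FL overlapped in Itga2b, with a log2 difference of 0.27 (95% interval -0.19 to 0.72). Without E12.5 PL replicate 1 the difference was 0.55 and was called (adjusted p = 0.0223, over alternatives from 0.0223 to 0.734).

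The partner chain, integrin beta 3 (Itgb3), followed the same turns as Itga2b. Its mean FPKM was 4.42 (SD 0.09) in E12.5 FL, 1.52 (SD 0.30) in E16.5 FL, 8.58 (SD 2.29) in Perinatal BM and 2.58 (SD 0.11) in 1w BM, with n = 3 each. It fell by 1.11, rose by 1.90 and fell by 1.39 on the log2 scale (SE 0.16 each, limma adjusted p = 2.49e-05, 1.83e-08 and 4e-06), and rose by 0.94 from 1w to 3w BM (adjusted p = 0.000703). The mast cell sum was 136 to 165 in E16.5 FL, 1709 to 4321 in Perinatal BM and 234 to 282 in 1w BM, and its part was not tested. E12.5 PL was different, with a mean of 32.8 FPKM (SD 2.74, n = 3) of Itgb3 to 12.98 of Itga2b. The ratio of the mean FPKM of Itga2b to that of Itgb3 was 0.396 in E12.5 PL and 3.33 to 10.6 in the other 8 groups. Endothelial cells are known to express integrin beta 3 too.

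Gp5, Gp9 and the 2 chains of glycoprotein Ib encode the receptor complex for von Willebrand factor. Gp5 (chr16:30307685-30310779, minus strand) was at 1.35, 2.07 and 2.38 FPKM in E12.5 FL and at 0.50, 0.86 and 0.75 in E16.5 FL. It was at 3.27, 2.73 and 1.35 in Perinatal BM and at 3.40, 3.88 and 5.32 in 1w BM. It fell by 0.77 between the fetal liver stages (SE 0.21, limma adjusted p = 0.00716) and rose by 0.98 to Perinatal BM (SE 0.21, adjusted p = 0.00139), both without overlap. Beside the rise stood the mast cell sum of 1709 to 4321 in Perinatal BM against 136 to 165, and its part was not tested. The rise of 0.62 to 1w BM (adjusted p = 0.0473) was lost in 7 of the alternatives tried, with an adjusted p from 0.025 to 0.252, the latter without Perinatal BM replicate 3. Gp5 reached 8.39, 12.9 and 10.4 FPKM in 8w BM, above all 24 other libraries, after 4.56 to 8.20 over the 9 libraries of 3w, 4w and 6w BM. From E16.5 FL to 8w BM it rose by 2.75 (SE 0.21, adjusted p = 8.5e-10).

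Gp9 (chr6:87778072-87779768, plus strand), a chain that the complex needs to reach the surface, ran the other way. Its FPKM was 8.40, 10.1 and 8.27 in E12.5 FL and 14.5, 16.6 and 15.3 in E16.5 FL, with no overlap. It was 20.8, 15.5 and 17.1 in Perinatal BM and 17.1, 17.0 and 16.55 in 1w BM. Perinatal BM overlapped both of its neighbours in age, and these 3 groups held the 9 highest libraries. From 3w BM on Gp9 was at 7.31 to 10.8 FPKM in 12 of 12 libraries, below all 9 of those. It rose by 0.73 from E12.5 to E16.5 FL (SE 0.14, limma adjusted p = 0.00035), fell by 0.71 from 1w to 3w BM (SE 0.14, adjusted p = 0.00207) and fell by 0.75 from E16.5 FL to 8w BM (SE 0.14, adjusted p = 0.000169). The ratio of the mean FPKM of Gp9 to that of Gp5 was 21.9 in E16.5 FL, 7.26 in Perinatal BM, 4.02 in 1w BM and 0.837 in 8w BM. E12.5 PL had the lowest Gp9, at 4.33, 5.58 and 3.30, and Gp9 was higher in E12.5 FL by 0.89 (SE 0.14, adjusted p = 4.19e-06).

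The glycoprotein Ib chains, Gp1ba and Gp1bb, were looked at as partners of Gp5 and Gp9 after their values were seen. Gp1ba had a mean of 1.10 FPKM (SD 0.25, n = 3) in E16.5 FL, 3.97 (SD 1.29) in Perinatal BM, 1.83 (SD 0.14) in 1w BM and 3.38 (SD 0.21) in 8w BM. It rose by 1.22 to Perinatal BM (SE 0.17, limma adjusted p = 2.2e-05) and fell by 0.78 to 1w BM (SE 0.17, adjusted p = 0.00347), as Itga2b and Itgb3 did. Beside these moves the mast cell sum went from 136 to 165 up to 1709 to 4321, then to 234 to 282, and its part was not tested. Gp1bb was at 16.9 (SD 0.21) in E12.5 PL and at 0.19 to 4.75 FPKM in the other 24 libraries. In E16.5 FL the means of Gp1ba, Gp1bb and Gp5 were 1.10, 0.57 and 0.71 FPKM, beside 15.5 of Gp9.

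Gp6, the collagen receptor of platelets (chr7:4363965-4397744, minus strand), was near 0 everywhere. By steps of 0.122 FPKM per read at the median depth, the E12.5 PL libraries held 3, 3 and 2 reads. E12.5 FL replicate 3, 3w BM replicate 2 and 6w BM replicate 1 held 1 read each, and 21 libraries held none. Gp6 was below 1 FPKM in all 27 libraries and was not tested in the main fit. In limma without a filter, over 20038 genes, it was lower in E12.5 FL than in E12.5 PL by 0.29 (adjusted p = 1.75e-05), a difference that rests on 8 reads against 1.

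Of the 2 transcription factors, Fli1 encodes an ETS factor needed to make megakaryocytes (chr9:32422204-32542861, minus strand), and its locus overlaps a gene on the other strand, from which reads could not be told apart if strand was not used in counting. Its FPKM was 31.8 to 33.4 in E12.5 FL, 29.6 to 32.3 in E16.5 FL and 25.8 to 26.7 in Perinatal BM. It was 30.1 to 36.0 in 1w BM, 33.0 to 34.3 in 3w BM, 33.4 to 35.7 in 4w BM, 37.7 to 44.4 in 6w BM and 37.7 to 41.9 in 8w BM. Perinatal BM lay below all other fetal liver and marrow libraries, and the 6w and 8w BM groups lay above them. Fli1 rose by 0.31 from Perinatal BM to 1w BM (SE 0.10, limma adjusted p = 0.0386), a call lost in 7 alternatives (adjusted p from 0.00238 to 0.17), and by 0.57 from Perinatal BM to 8w BM (SE 0.10, adjusted p = 0.000142). Its log2 difference of -0.24 between Perinatal BM and E16.5 FL was not called (adjusted p = 0.0808), but it was called in a fit without E12.5 PL (0.00787) and in a fit of only the 6 libraries compared (0.0365), over alternatives that ran from 0.00787 to 0.184. The rise of 0.33 from E16.5 FL to 8w BM (adjusted p = 0.0135) was lost without E16.5 FL replicate 2 (0.0588) or 8w BM replicate 1 (0.0584), over alternatives from 0.000424 to 0.0588. E12.5 PL, at 14.95, 10.8 and 9.29 FPKM, lay below every other library, and Fli1 was higher in E12.5 FL by 1.44 (SE 0.10, adjusted p = 1.09e-11).

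Nfe2 encodes the large subunit of NF-E2, which drives the late steps of platelet formation (chr15:103248212-103258403, minus strand). It had the highest FPKM of the 9 genes in each fetal liver and marrow group, with means from 60.02 in Perinatal BM to 112 in 8w BM. Its FPKM was 76.0, 92.7 and 82.5 in E12.5 FL and 59.7, 64.9 and 73.9 in E16.5 FL, a fall of 0.34 (SE 0.12, limma adjusted p = 0.031) that was lost in 4 of the fits without 1 library (adjusted p from 0.0627 to 0.146). It was 61.1, 64.4 and 54.5 in Perinatal BM and 94.8, 87.9 and 87.8 in 1w BM, a rise of 0.58 without overlap (SE 0.12, adjusted p = 0.00166). From 1w to 8w BM it lay between 87.8 and 117 FPKM, and each group overlapped its neighbour in the order of means. From Perinatal BM to 8w BM it rose by 0.89 (SE 0.12, adjusted p = 3.6e-06). In E12.5 PL Nfe2 was at 8.50, 5.02 and 5.81, and it was higher in E12.5 FL by 3.53 (SE 0.12, adjusted p = 6.01e-18).

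Step by step, the calls lay in the steps up to 3w BM, as the plot of successive log2 changes shows. From E12.5 to E16.5 FL, 2 genes rose (Gp9, Vwf) and 3 fell (Itga2b, Gp5, Nfe2), 5 of 8 called where 34.6% of all genes were (19% higher, 15.6% lower). From E16.5 FL to Perinatal BM, 3 rose (Pf4, Itga2b, Gp5) and none fell, where 28.4% of all genes were called (14.2% in each direction), and 4 had an unadjusted limma p under 0.05. All 14 tested mast cell markers rose at that step, and 13 of 14 fell at the next. From Perinatal BM to 1w BM, 3 rose (Gp5, Fli1, Nfe2) and Itga2b fell, where 17.6% of all genes were called (8.6% higher, 8.97% lower). From 1w to 3w BM, Pf4 and Itga2b rose and Gp9 fell, where 10.4% of all genes were called (5.69% higher, 4.76% lower), and 7 of 12 tested macrophage markers rose. From E12.5 to E16.5 FL 7 of 12 macrophage and 11 of 17 erythroid markers had risen, and the part of such cells in these steps was not tested. Successive steps share libraries, so their calls are not independent.

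After 3w BM no step called any of the 8 genes. Shares over all genes were low there too, as given below, so 0 of 8 does not set these genes apart. 3w and 8w BM were not compared directly. Mean Pf4, Itga2b, Gp5 and Vwf were 41.9, 37.4, 5.26 and 4.27 FPKM in 3w BM. In 8w BM these means were 71.0, 58.3, 10.6 and 8.27. Mean Fli1 and Nfe2 were also higher in 8w BM than in 3w BM, and mean Gp9 and Ppbp lower. From 3w to 4w BM limma called 0 of 8, with 0 at an unadjusted p under 0.05, where 9.28% of all genes were called (4.72% higher, 4.56% lower). From 4w to 6w BM it called 0 of 8, with 2 at an unadjusted p under 0.05 (Itga2b and Fli1), where 3.94% of all genes were called (2.59% higher, 1.35% lower). Itga2b was called there without 4w BM replicate 2 (adjusted p = 0.0471), and Fli1 without the E12.5 PL libraries (0.032), while over all alternatives their adjusted p reached 0.593 and 0.54. From 6w to 8w BM it called 0 of 8, with 3 at an unadjusted p under 0.05 (Pf4, Gp5 and Vwf), where 8.18% of all genes were called (2.97% higher, 5.21% lower). In that step Pf4, Gp5 and Vwf had log2 changes of 0.84, 0.61 and 0.55 and limma adjusted p-values of 0.228, 0.082 and 0.13. The lowest 8w BM library lay above the highest 6w BM library in these 3, by small margins in Pf4 (65.5 against 62.4 FPKM) and Gp5 (8.39 against 8.20). In Vwf these values were 6.86 and 5.62. How many of all genes were separated in this way was not counted, so the separation does not set these genes apart. The sum of the macrophage markers was 56.9 to 64.2 in 6w BM and 120.5 to 191 in 8w BM, and its part was not tested. Over all 8 fetal liver and marrow groups together, the moderated F test called 7 of 8 genes, all but Ppbp, where 74.8% of all genes were called.

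**Figure D4:**
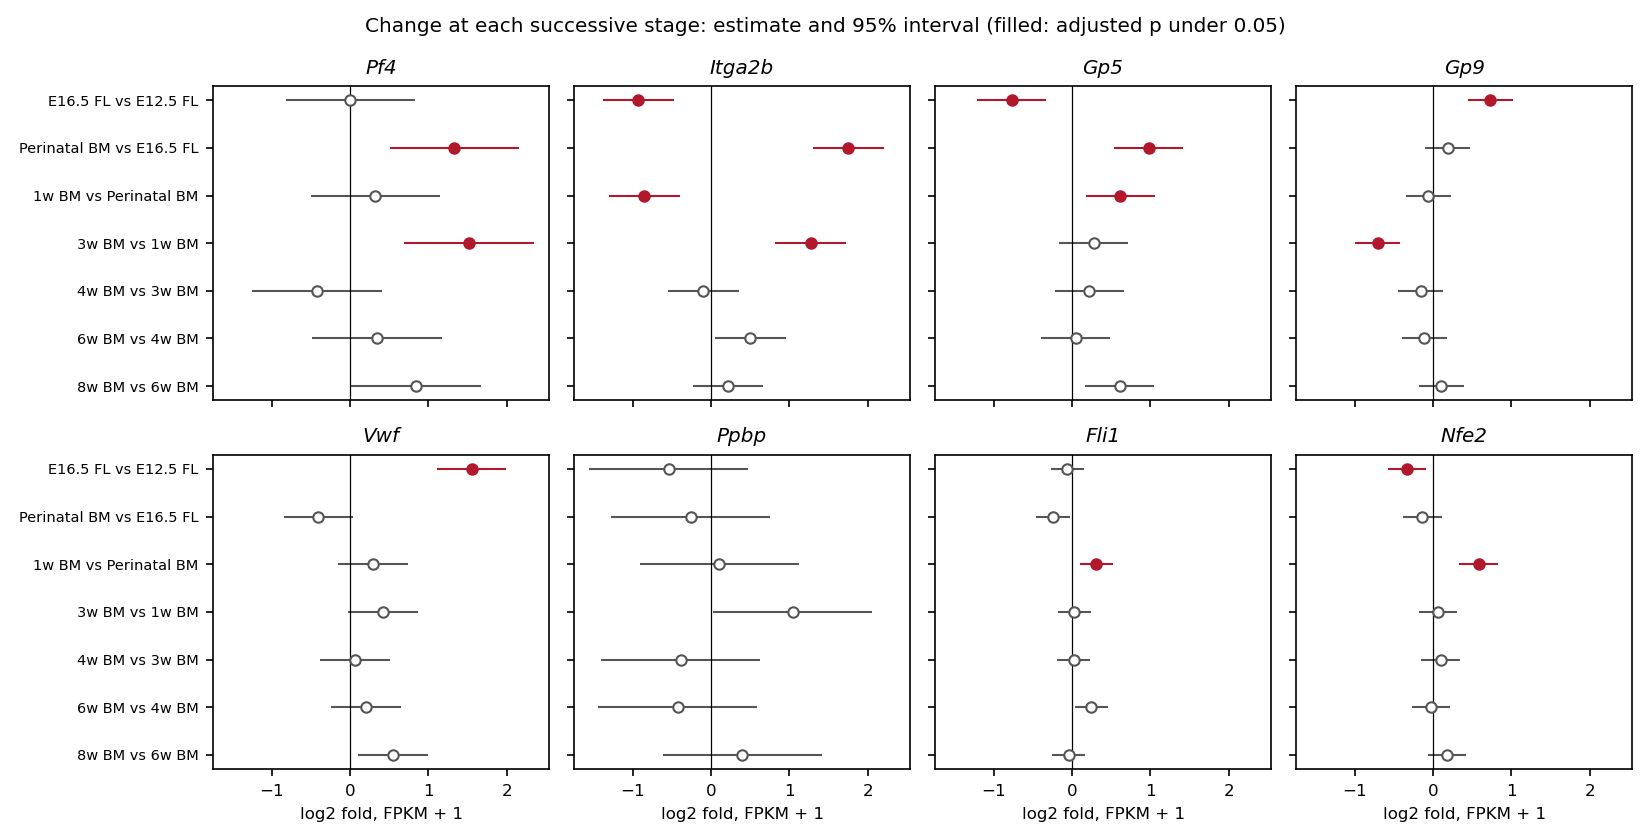
Log2 change of 8 genes at each successive step (point) with its 95% interval (bar), from limma on log2(FPKM + 1), with filled red points for an adjusted p under 0.05. No point is filled from 3w BM on, and Itga2b has filled points on both sides of 0.

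Between E12.5 PL and E12.5 FL, 6 of the 8 genes were called, where 74.2% of all genes were (33.2% higher and 41% lower in E12.5 FL). Pf4 was lower in E12.5 FL by 3.34 (SE 0.40, limma adjusted p = 8.1e-08), and Vwf and Ppbp were lower too, while Gp9, Fli1 and Nfe2 were higher. Among the 9 genes, the 3 granule genes were lower in E12.5 FL and both transcription factors higher. Other genes of these 2 kinds moved both ways. Of 19 other tested genes of granules and their cargo, 8 were called higher in E12.5 FL and 9 lower. Of 23 other tested transcription factors of the lineage, 16 were called higher in E12.5 FL and 7 lower. The comparison moved with the HSPC, endothelial and trophoblast sums given above, over marker lists of which 10 of 12 HSPC markers were higher in E12.5 FL and 19 of 20 endothelial and 16 of 16 tested trophoblast markers lower, and the part of these cells was not tested. The erythroid sum was 567 to 780 in E12.5 PL and 157 to 226 in E12.5 FL, with 2 of 17 tested markers higher in E12.5 FL and 4 lower. Within that sum, Car2 alone had a mean of 573 FPKM in E12.5 PL and 113 in E12.5 FL. The part of erythroid cells was not tested either.

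The spread within groups was shared by some of the genes. After the group mean was taken from each of the 24 fetal liver and marrow libraries, the deviations of Pf4 correlated with those of Itga2b at Pearson r = 0.85. Among Pf4, Itga2b, Gp5 and Vwf the 6 coefficients lay between 0.61 and 0.85. Those of Gp9 with these 4 genes lay between 0.01 and 0.09, and those of Fli1 and Nfe2 with them between -0.09 and 0.17. These are descriptions over 24 libraries, and a library shares its depth and cell preparation over all its genes. Such coefficients were not computed over other genes, so these do not show that the 4 genes are alike beyond other genes. The plot of deviations by library shows the 2 libraries that stood out. 4w BM replicate 2 lay above its group mean by 0.93 in Pf4, 0.52 in Itga2b, 0.34 in Gp5 and 0.65 in Vwf on the log2 scale. Perinatal BM replicate 3 lay below its group mean by 0.99 in Pf4, 0.53 in Itga2b, 0.51 in Gp5 and 0.38 in Vwf.

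Several marker sums moved with these libraries. The sum over 21 erythroid markers was 423 in 4w BM replicate 2, against 299 and 318 in the other 4w BM libraries, and 210 in Perinatal BM replicate 3, against 231 in each of the others. Car1, a carbonic anhydrase of early erythroid cells, is part of this sum. It was at 103 FPKM in 4w BM replicate 2, against 34.1 and 40.1, and at 7.58 in Perinatal BM replicate 3, against 22.4 and 16.49. Of 2 macrophage sums, 70.5 in 4w BM replicate 2 and 56.1 in Perinatal BM replicate 3, both were the highest of their group. The HSPC sum was the lowest of its group in 4w BM replicate 2, at 1139 against 1300 and 1349. In Perinatal BM replicate 3 it was the highest, at 1197 against 1143 and 1104. The mast cell sum was 218 in 4w BM replicate 2, against 180 and 175, and 4321 in Perinatal BM replicate 3, against 3463 and 1709. Most of the 4w BM sums was Kit, also an HSPC marker, at 139 FPKM in replicate 2, against 147 and 142. The next largest parts there were Cpa3 and Hdc. Cpa3 was at 44.9 FPKM in 4w BM replicate 2, against 20.1 and 17.8, and Hdc at 14.5, against 4.84 and 5.36. The part of any of these cells in the spread was not tested.

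**Figure D5:**
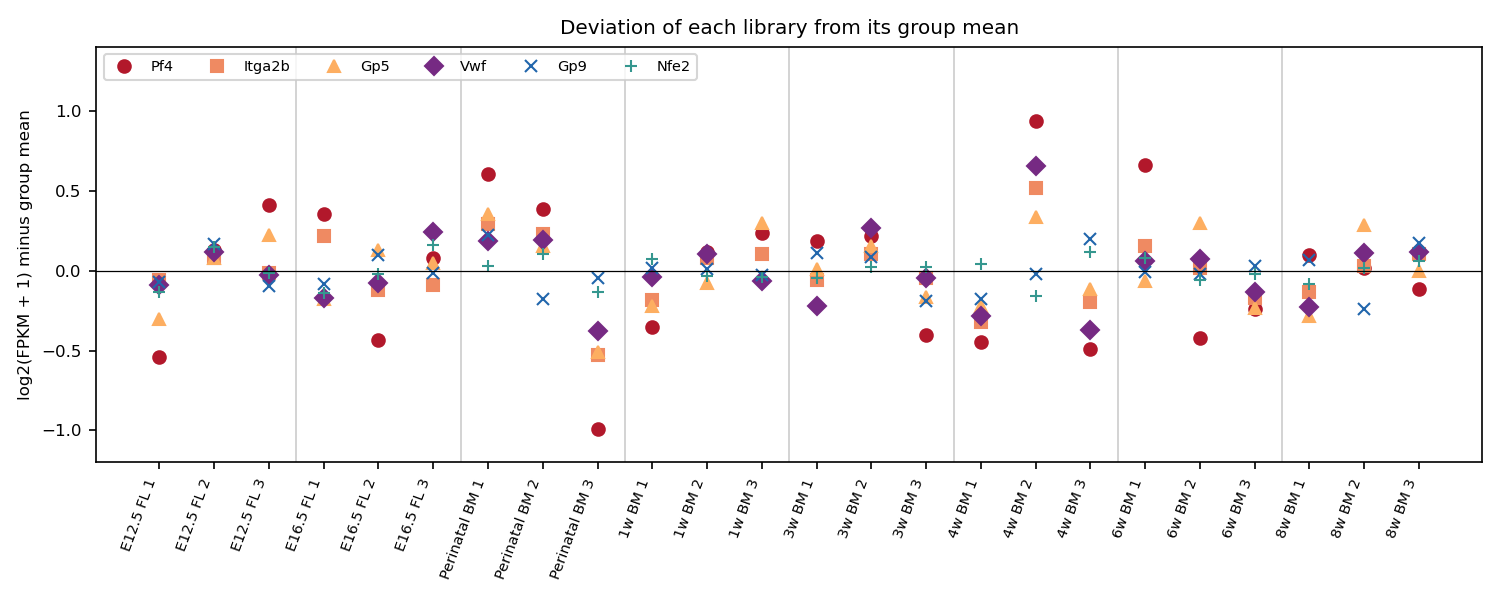
Deviation of log2(FPKM + 1) from the group mean for 6 genes in the 24 fetal liver and marrow libraries. Pf4, Itga2b, Gp5 and Vwf lie together above 0 in 4w BM replicate 2 and together below 0 in Perinatal BM replicate 3, while Gp9 and Nfe2 do not follow them.

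Across the levels of the 24 libraries, which share their ages, Pf4 correlated with Gp5 at r = 0.92, with Itga2b at 0.91 and with Vwf at 0.82. Fli1 and Nfe2 correlated at 0.78. Gp9 had a negative r with all 7 other tested genes, from -0.23 with Vwf to -0.71 with Fli1. Of 13266 genes, those most like Pf4 were Mfsd2b, a sphingosine 1-phosphate exporter of red cells and platelets, at r = 0.96, then Icam4, Car1, Sdsl and Spn. Gp5 itself ranked at place 28 and Itga2b at place 59 in that list. The genes most like Itga2b were Ndor1 (0.94), Robo3, Fam65a, Mfsd2b and Ank, and Pf4 ranked at place 14 for it. Among those most like Gp5 were Pde4a (0.93), Muc13, the thrombin receptor gene F2rl2 and Optn, with Pf4 at place 8.

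The genes most like Gp9 were Mapk13 (0.91), S100a9, F5, S100a8 and Fcnb. S100a8 and S100a9 encode the calprotectin chains of neutrophils and monocytes, and F5 encodes coagulation factor V, which platelets also carry. Those most like Vwf were Sord (0.94), Aqp1, Tnfaip2, Atp1b2 and Dach1, and Pf4 ranked at place 346 for it. Among the genes most like Fli1 were Dapp1 (0.89), Cnot4, Zfp638 and Zfp712, and among those most like Nfe2 were Zscan22 (0.94), Tnfsf14, Sphk2 and Zfp324. For Ppbp the nearest genes, Hoxa11os (0.83), Zfp583, Hist2h2ab, Ddr2 and Rexo4, rest on few reads and few libraries. When r was taken over the 8 group means instead, 9 of the 40 nearest genes (5 for each of the 8) were again among the 5 nearest to the same gene.

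Other genes of the megakaryocyte programme were counted in 4 lists. Of 21 tested surface receptors, 10 rose and 4 fell from E16.5 FL to 8w BM, with a median log2 change of 0.39, against 0.00 over all genes, of which 20.5% rose and 19.7% fell. F2rl2, which encodes a protease-activated receptor for thrombin, rose by 1.91 (SE 0.17, limma adjusted p = 5.69e-09) to 5.54 FPKM (SD 0.66, n = 3), and Itgb3 rose by 1.84 (SE 0.16, adjusted p = 9.25e-09). Jam3, a junctional adhesion molecule, fell by 2.29 (SE 0.15, adjusted p = 4.95e-11). From E16.5 FL to Perinatal BM 8 of the 21 rose and 2 fell, where 14.2% of all genes rose and 14.2% fell. From Perinatal BM to 1w BM 1 rose and 5 fell, Itgb3, Fcer1g, Gp1ba and P2rx1 among the latter, where 8.6% of all genes rose and 8.97% fell. Over the same steps the mast cell sum rose from 136 to 165 up to 1709 to 4321 and fell to 234 to 282, and its part was not tested.

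Of 19 tested genes of granules and their cargo, 9 rose and 4 fell from E16.5 FL to 8w BM, with a median of 0.38, where 20.5% of all genes rose and 19.7% fell. Selp encodes P-selectin, the adhesion molecule of the alpha granule membrane. Its FPKM was 2.62, 2.79 and 2.94 in E16.5 FL, 6.08, 4.42 and 5.59 in 6w BM and 15.3, 14.9 and 13.9 in 8w BM. It rose by 2.06 from E16.5 FL to 8w BM (SE 0.13, limma adjusted p = 2.64e-11), by 0.95 from 3w to 4w BM (adjusted p = 0.00026) and by 1.31 from 6w to 8w BM (adjusted p = 1.81e-06), between libraries that also differed in the macrophage sum (56.9 to 64.2 in 6w BM). The part of macrophages was not tested. F5 fell by 0.79 from 1w to 3w BM (SE 0.14, adjusted p = 0.00102), the step at which Gp9 fell. Rab27b, a GTPase of granule release, had a mean of 7.16 FPKM (SD 3.11, n = 3) in Perinatal BM and 1.90 (SD 0.15, n = 3) in 1w BM. It fell by 1.42 between them (SE 0.21, adjusted p = 5.7e-05). Its 3 Perinatal BM values were 6.73, 4.29 and 10.5, beside mast cell sums of 3463, 1709 and 4321. An order over 3 libraries is a description only, and the part of mast cells was not tested.

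Of 27 tested genes of the cytoskeleton and platelet signalling, 10 rose and 2 fell from E16.5 FL to 8w BM, with a median of 0.16, where 20.5% of all genes rose and 19.7% fell. Cavin2, a coat protein of caveolae, rose by 2.29 (SE 0.18, limma adjusted p = 1.41e-09) and Tbxas1, thromboxane synthase, by 0.94 (SE 0.14, adjusted p = 1.52e-05). Ptgs1, the cyclooxygenase upstream of it, fell by 0.95 (SE 0.11, adjusted p = 3.09e-07). The 2 enzymes of thromboxane synthesis thus moved in opposite directions, Ptgs1 from a mean of 26.4 to 13.2 FPKM and Tbxas1 from 12.98 to 25.5.

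Of 23 tested transcription factors of the lineage, 10 rose and 6 fell from E16.5 FL to 8w BM, with a median of 0.17, where 20.5% of all genes rose and 19.7% fell. Gata1 rose by 1.43 (SE 0.20, limma adjusted p = 6.22e-06) and Gata2 by 1.06 (SE 0.12, adjusted p = 2.41e-07), while Ets1 fell by 1.11 (SE 0.15, adjusted p = 4.22e-06). Gata2, a factor of stem cells and mast cells as well, went from a mean of 39.3 FPKM (SD 2.81, n = 3) in E16.5 FL to 94.7 (SD 4.97, n = 3) in Perinatal BM, a rise of 1.25 (SE 0.12, adjusted p = 7e-08) beside the rise of the mast cell sum. The part of mast cells was not tested. Among the small Maf proteins that pair with the Nfe2 product, Maff and Mafk fell from 6w to 8w BM by 2.53 and 1.31 (SE 0.33 and 0.21, adjusted p = 3.42e-05 and 0.000304). Nfe2 itself was at 95.2 to 105 FPKM in 6w BM and 106 to 117 in 8w BM and was not called in that step (log2 difference 0.18, 95% interval -0.07 to 0.42). Of the 4 lists, the counts from 4w to 6w BM were 0, 0, 3 and 1 risen and 1, 0, 1 and 0 fallen, in the order given here, where 2.59% of all genes rose and 1.35% fell.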

How the data were processed

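RNA of purified HSPCs was measured in 27 libraries, 3 for each of 9 groups. The authors deposited FPKM per gene. Per the submitters' processing notes, HTSeq 0.6.1p1, STAR 2.7, FastQC and Trim Galore were used on the build GRCm38. The tool that computed FPKM, its annotation, strand use and scaling were stated in none of the sources used here. All 27 columns were used, no 2 were identical, and libraries of a group correlated at r = 0.979 to 0.995 across genes.

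FPKM were transformed to log2(FPKM + 1). The 13350 genes that reached an FPKM of 1 in 3 or more libraries entered limma 3.58.1 (R 4.3.3, functions lmFit and eBayes with a trend), with 9 group means and 18 residual degrees of freedom, and adjusted by Benjamini-Hochberg in each of 10 comparisons and 1 moderated F test. SE and 95% intervals come from this fit. Relative depth and reads of Ppbp and Gp6 came from the steps between low values in Python 3.11.15. Positions are from GENCODE M21 and upstream sequences from RefSeq, both on GRCm38.

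All 9 genes are named. Of the 4 lists, up to 4 genes with the smallest adjusted p in a comparison are named, and of genes alike in pattern the 5 with the highest r over 24 libraries, leaving out predicted genes, pseudogenes and mitochondrial genes. A few genes that this rule names are not reported here. The members and lists were chosen with earlier results of these data known. Alternatives tried: leaving out each library, a replicate block, a fit of only the compared libraries, a median-of-ratios scaling (factors from 0.991 to 1.02), a filter at 5 FPKM, no filter, and a pseudocount of 0.1. A fit without E12.5 PL was chosen after seeing the data.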

Additional observations from a re-analysis of the deposited data

How the results depend on the processing

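Over 1280 tests of single genes under the alternatives, 1243 kept direction and call, 29 lost a call, 8 gained one and 0 reversed. The calls that changed are given beside each gene. Of 8 genes, those called from Perinatal BM to 1w BM numbered 4, but 2 with no filter, 1 in a fit of only the compared libraries and 2 to 3 when 1 library was left out. From 4w to 6w BM 0 were called, but 1 without E12.5 PL and 0 to 1 with 1 library left out. Of all genes, a fit of only the compared libraries, which has fewer degrees of freedom, called 2145 in place of 3786 from E16.5 FL to Perinatal BM. It called 899 in place of 2345 from there to 1w BM and 104 in place of 1239 from 3w to 4w BM. From 4w to 6w BM it called 10 in place of 526, and from 6w to 8w BM 6 in place of 1092. In other steps it called more, 5177 in place of 4620 from E12.5 to E16.5 FL and 1500 in place of 1394 from 1w to 3w BM. Leaving out 1 library gave 1462 to 2388 genes from Perinatal BM to 1w BM, 738 to 988 from 1w to 3w BM (1394 in all libraries), 363 to 1643 from 3w to 4w BM, 237 to 588 from 4w to 6w BM and 478 to 1077 from 6w to 8w BM. Of 40 nearest genes by pattern, 8 were kept over all 27 libraries and 9 over group means. The cause of these changes was not tested.

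With a replicate block the counts were 9906 genes from E12.5 PL to E12.5 FL and 5324 from E16.5 FL to 8w BM, and none of the 8 genes gained or lost a call. Libraries with the same number did not deviate together (residual r from -0.205 to 0.13 in 30 pairs, and 8 of 27 closest to their own number), so the numbers do not pair them. Depth limits Ppbp and Gp6, which rest on few reads.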
